A study of Homo sapiens with 4 samples.

Results

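The SUN, nesprin and lamin genes form the bridge across the nuclear envelope and the filament layer beneath it. The set holds 10 genes, looked up by symbol in a table of 39519 genes: SUN1, SUN2, SUN3, SUN5, SYNE1, SYNE2, SYNE3, LMNA, LMNB1 and LMNB2. All 10 were found. The set was chosen around SUN3 because its level was higher after knockdown in these same libraries, so the differences between groups given below are descriptions and carry no test. The other 9 genes came in by family, but with earlier results of these data known. The libraries were made from U2OS cells, a human osteosarcoma line, by RNA sequencing of rRNA-depleted total RNA. The control group (sh-NC, n = 2) received DMSO and is also labelled 72 h. The knockdown group (sh-PURB, n = 2) carried an inducible hairpin against PURB, whose product binds purine-rich single-stranded nucleic acid, and received doxycycline at 5 µg/ml for 72 h. Doxycycline and the hairpin therefore changed together and cannot be told apart. The labels do not say whether the 2 libraries of a group came from separate cultures, or whether the cells were a pool or a clone, so the spread between them may be technical.

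SUN proteins sit in the inner nuclear membrane and reach into the space between both membranes, where their SUN domain grips the KASH peptide of a nesprin in the outer membrane. On the nuclear side SUN proteins touch the lamins, intermediate filaments that line the inner membrane, and on the cytoplasmic side nesprins hold actin, microtubule motors or the linker plectin. SUN1 and SUN2 are found in most tissues, while SUN3 and SUN5 are best known from the testis and developing sperm. LMNA encodes lamins A and C, which stiffen the nucleus, and LMNB1 and LMNB2 encode the B-type lamins, which stay tied to the membrane by a farnesyl group.

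The stretches upstream of transcription starts are shown for SUN3, for SYNE1, which shares a motif with it, and for SUN2, which was lower, so that the letters can be read beside the values. They are RefSeq sequences (GRCh38.p14), written 5′ to 3′ on the gene's own strand. Of the 10 genes 9 matched the RefSeq promoter table, with 20 starts in all, and SUN1 did not. Capitals in the first pair mark the letters TGATGNAAN, searched on both strands, the core of the amino acid response element that the transcription factor ATF4 is known to bind with its partners. Capitals in SUN2 mark CCAAT, the box bound by NF-Y. The SUN3 stretch covers the 250 bases before its start on the minus strand (chr7:48029108-48029357), the SYNE1 stretch holds 30 bases before the first of 4 listed starts (chr6:152637489-152637518, minus strand, within an annotated exon), and the SUN2 stretch covers 150 bases before the first of 3 starts (chr22:38755999-38756148, minus strand).
SUN3: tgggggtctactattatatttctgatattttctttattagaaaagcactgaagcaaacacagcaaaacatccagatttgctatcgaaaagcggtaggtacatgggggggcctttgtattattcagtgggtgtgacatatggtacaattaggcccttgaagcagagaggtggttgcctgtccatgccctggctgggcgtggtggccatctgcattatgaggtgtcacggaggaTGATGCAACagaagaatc
SYNE1: tttcggaagtTGATGAAAAaggagccagcg
SUN2: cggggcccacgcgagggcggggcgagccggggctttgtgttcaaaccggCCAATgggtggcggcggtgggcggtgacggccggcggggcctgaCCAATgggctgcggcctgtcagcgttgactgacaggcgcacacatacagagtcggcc

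The SUN3 match, TGATGCAAC, lies 18 to 10 bases before the RefSeq start, and the SYNE1 match, TGATGAAAA, 146 to 138 bases before its start. In the GENCODE annotation SUN3 starts further upstream, at base 48029119, so 12 of the 250 bases shown lie within an annotated exon. The SUN3 match (48029117 to 48029125) spans that start and is not wholly upstream of it. No other of the 20 member promoters held the motif, so 2 of 20 did. Of 35116 promoters of the same length in the table, 3.61% held it. CCAAT was in 5 of the 20 member promoters, against 34.6% of all promoters. SUN2 held it at 101 to 97 and at 57 to 53 bases before the first start, and the other matches were in LMNA, LMNB1, SYNE1 and SYNE2. The letters GGNGGNGGN, a purine-rich repeat of the kind PUR proteins are known to bind, were in 15 of the 20 member promoters and in 52.7% of all promoters, and were not among the letters of the SUN3 window. TTTGAA, the cell cycle homology element, was on either strand in 3 of the 20 member promoters, against 15.2% of all promoters. The genes were SUN2, SUN3 and LMNB2. The promoters searched also run past the start, and the SUN3 match lay 8 to 13 bases after it, outside the stretch shown. The motifs were searched with the gene values known. A match is a string of letters and was not tested as a binding site.

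Values are TPM, a share of all RNA that is scaled by transcript length, so levels of different genes can be compared, but read depth is unknown. PURB itself was at 5.29 and 6.55 TPM in the controls, against 2.46 and 2.69 TPM after knockdown, 43.5% of the control mean. Between 13298 and 14207 genes reached 1 TPM in a library. Of the mesenchymal and bone markers, VIM (298 to 342 TPM), SPARC (220 to 262 TPM), THY1, COL1A1 and RUNX2 had a mean of at least 1 TPM, whereas the osteoblast factor SP7 was at or near 0 (highest 0.0346 TPM) and ALPL and COL1A2 stayed below 1 TPM. Of 12 markers of blood, epithelial, endothelial, liver, islet and glial cells, KRT8, KRT18, EPCAM and PTPRC reached a mean of 1 TPM in a group. The sum of the 12 was 190 to 217 TPM in the controls, against 193 to 204 TPM after knockdown. Most of it was KRT8 and KRT18, which went opposite ways. KRT8 was at 115 and 101 TPM in the controls, against 86.2 and 89.6 TPM after knockdown. KRT18 was at 98.1 and 84.2 TPM in the controls, against 114 and 99.1 TPM after knockdown. In bulk RNA, fewer cells of a type and less RNA per cell cannot be told apart.

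SUN3 was the member that differed most, with 29.4 and 22.2 TPM in the controls, against 92.8 and 81.4 TPM after knockdown. Both knockdown libraries lay far above both controls, and the groups did not overlap. The means were 25.8 ± 5.08 and 87.1 ± 8.07 TPM (mean ± SD, n = 2 each), a ratio of 3.37, with a difference of 1.73 ± 0.166 (standard error) on the log2(TPM + 1) scale. By this difference SUN3 ranked 90 from the top of 14269 tested genes. Over the 10 alternatives that gave it another value the difference ran from 1.53 to 1.92. Both ends came from leaving out 1 control library. The rescalings and the fit of protein-coding genes only gave 1.74 to 1.90.

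SUN1 is the widely expressed SUN protein that also tethers telomeres in meiosis. It was at 41.7 and 51.3 TPM in the controls, against 42.5 and 54.1 TPM after knockdown. The groups overlapped, and the difference (0.05 ± 0.171, standard error) was smaller than its error. SUN2, which shares much of its function with SUN1 in somatic cells, was at 21.2 and 22.4 TPM in the controls, against 13.2 and 17.3 TPM after knockdown, which is 70.0% of the control mean. The 2 knockdown libraries lay below both controls, but they also lay further from each other than the controls did (SD 2.91 against 0.836 TPM, n = 2 each), and the difference was -0.50 ± 0.162. SUN5, needed for the head to tail joint of sperm, was listed at 0.0330 TPM in sh-NC replicate 1 and at 0 in the other libraries, so no fold is given.

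**Figure D1:**
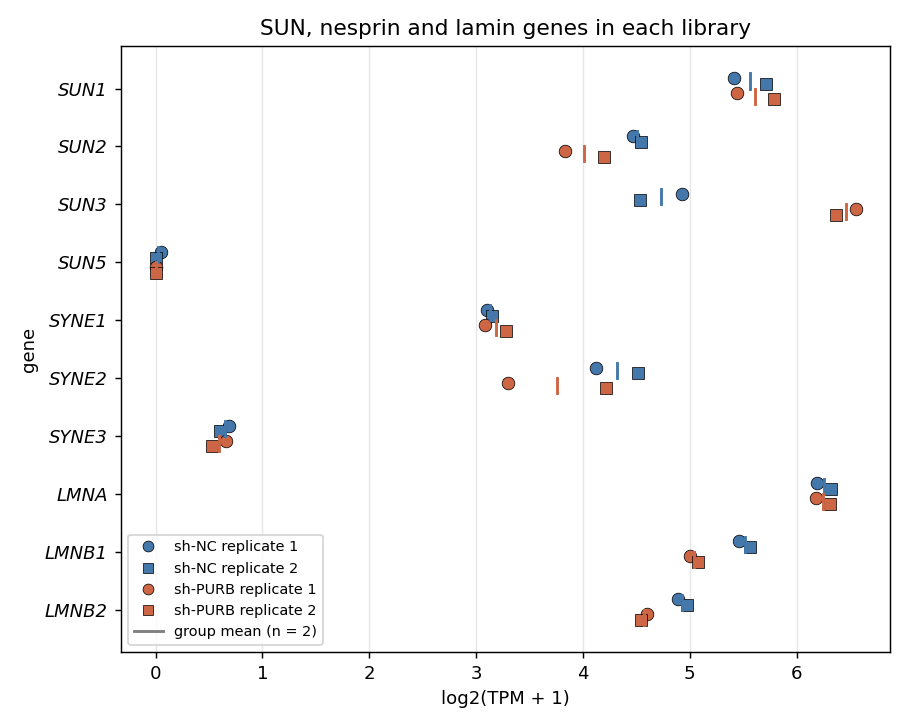
Level of each of the 10 genes as log2(TPM + 1) (horizontal axis) in the 2 sh-NC libraries (blue) and the 2 sh-PURB libraries (orange), with circles for replicate 1, squares for replicate 2 and a short bar for each group mean. SUN3 is the gene with both sh-PURB libraries above both sh-NC libraries. SUN2, LMNB1 and LMNB2 have both below, and the other genes overlap.

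In all 3 nesprin genes the groups overlapped. SYNE1, whose long product binds actin, was at 7.59 and 7.87 TPM in the controls, against 7.50 and 8.70 TPM after knockdown, with a difference of 0.06 ± 0.142 (standard error). SYNE2, the other giant nesprin, was at 16.4 and 21.8 TPM in the controls, against 8.84 and 17.6 TPM after knockdown. The single low library was sh-PURB replicate 1. The other knockdown library lay between the controls. The SYNE2 difference was -0.56 ± 0.339, but -0.10 when sh-PURB replicate 1 was left out and -1.02 when the other was, so its size turned on that library. SYNE3, the nesprin that binds plectin, was at 0.613 and 0.523 TPM in the controls, against 0.580 and 0.439 TPM after knockdown, below 1 TPM in every library. In the annotation SYNE1 has 40 transcripts of 414 to 27748 bases and SYNE2 has 28 of 389 to 21842 bases, so a TPM per gene sums long and short forms that the table does not separate.

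Among the lamins, both B-type genes were lower, while the A-type gene differed by less than its error. LMNA was at 72.3 and 79.0 TPM in the controls, against 71.5 and 78.5 TPM after knockdown. The 2 groups covered nearly the same range, and the difference was -0.01 ± 0.106 (standard error). LMNB1 was at 43.1 and 46.3 TPM in the controls, against 31.1 and 32.7 TPM after knockdown, or 71.4% of the control mean. LMNB2 was at 28.6 and 30.4 TPM in the controls, against 23.2 and 22.4 TPM after knockdown, 77.1% of the control mean. For both B-type genes the groups did not overlap, and the gap between groups was wider than the distance between the libraries of either group. Their differences were -0.47 ± 0.104 for LMNB1 and -0.36 ± 0.107 for LMNB2. TPM was also recomputed without mitochondrial genes and without genes above 1% of the total in any library. The median difference over all genes then moved from -0.06 to 0.08, LMNB1 went to -0.33, LMNB2 to -0.22 and LMNA to 0.14. Relative to the median of all genes, LMNB1 was at -0.42 in the first case and at -0.41 in the second.

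The order of levels within the set differed between groups. In sh-NC it ran from LMNA (75.6 ± 4.71 TPM, mean ± SD, n = 2) through SUN1 (46.5 ± 6.83 TPM) and LMNB1 (44.7 ± 2.23 TPM), whose ranges overlapped, to LMNB2 (29.5 ± 1.27 TPM). SUN3 came next, with a range that overlapped those of LMNB2 and SUN2, and SUN2 in turn overlapped SYNE2 (19.1 ± 3.85 TPM). SYNE1, SYNE3 and SUN5 followed without overlap. In sh-PURB SUN3 stood first, above LMNA in both libraries (75.0 ± 4.96 TPM for LMNA). SUN1 (48.3 ± 8.19 TPM), LMNB1 (31.9 ± 1.10 TPM) and LMNB2 (22.8 ± 0.592 TPM) came next without overlap, and SUN2 (15.3 ± 2.91 TPM) overlapped SYNE2 (13.2 ± 6.22 TPM). SYNE1 (8.10 ± 0.847 TPM), SYNE3 and SUN5 again came last.

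Ratios within a library do not depend on its scaling. The ratio of SUN3 to SUN1 was 0.706 and 0.433 in sh-NC and 2.18 and 1.504 in sh-PURB, so SUN3 went from below SUN1 to above it in TPM. SUN3 made up 31.9% and 23.2% of the summed TPM of the 4 SUN genes in sh-NC and 62.5% and 53.3% in sh-PURB. That sum was 94.1 ± 2.56 TPM for controls, against 151 ± 3.03 TPM after knockdown (mean ± SD, n = 2 each), while SUN1 and SUN2 alone summed to 68.3 ± 7.66 and 63.6 ± 11.1 TPM. The ratio of SUN2 to SUN1 was 0.509 and 0.436 in sh-NC and 0.310 and 0.320 in sh-PURB, closer between the knockdown libraries than the SUN2 level itself. The ratio of SYNE2 to SYNE1 was 2.16 and 2.77 in sh-NC and 1.18 and 2.03 in sh-PURB.

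Lamin ratios were also lower after knockdown. LMNB1 to LMNA stood at 0.597 and 0.586 in sh-NC and at 0.435 and 0.416 in sh-PURB. LMNB2 to LMNA stood at 0.396 and 0.385 in sh-NC and at 0.325 and 0.285 in sh-PURB. In each ratio both knockdown libraries lay below both controls, and the knockdown libraries lay further apart in LMNB2 to LMNA than in LMNB1 to LMNA. LMNA made up 50.4% ± 0.378 of the summed lamin TPM in the controls, against 57.8% ± 1.39 after knockdown (SD, n = 2 each).

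**Figure D2:**
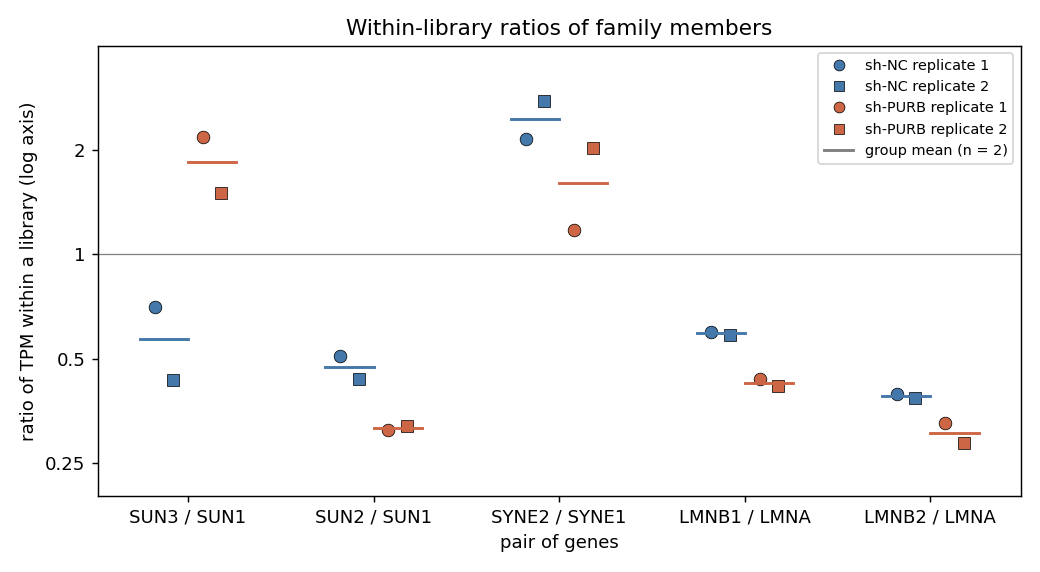
Ratio of TPM between 2 genes of a family within each library (vertical log axis), for 5 pairs, in the 2 sh-NC (blue) and 2 sh-PURB (orange) libraries, with a bar for each group mean. SUN3 to SUN1 crosses from below 1 in sh-NC to above 1 in sh-PURB, while the ratios of SUN2 to SUN1 and of both B-type lamins to LMNA are lower in both sh-PURB libraries.

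Counts over the members are given beside the same counts over all genes. A gene was tested if it had at least 1 TPM in at least 2 libraries, which 14269 genes did, and 8 of the 10 members passed (SUN5 and SYNE3 did not). limma called 0.287% of tested genes at an adjusted p under 0.05, 41 in all with 12 higher (0.0841%) and 29 lower (0.203%), or 26 higher and 34 lower with recomputed TPM. Of the 7 tested members other than SUN3, none was among the 41. SUN3 lay just outside the threshold here and was called in some of the alternative fits. No call is read for it either way, since the set was chosen on it. Apart from SUN3, 3 of the other 7 had an unadjusted limma p under 0.05, SUN2, LMNB1 and LMNB2, all lower, where 15.3% of all tested genes had such a p and 9.53% were lower with one. SUN3, around which the set was made, was chosen on this contrast by its TPM values, so nothing is read from these counts. Groups did not overlap for 4 of the 8 members (50.0%), and for 47.9% of all tested genes. For 18.6% of tested genes both sh-PURB libraries lay above both controls, as for 1 member, and for 29.3% both lay below, as for 3 members. The median difference of the 8 members was -0.19 and that of all tested genes -0.06.

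**Figure D3:**
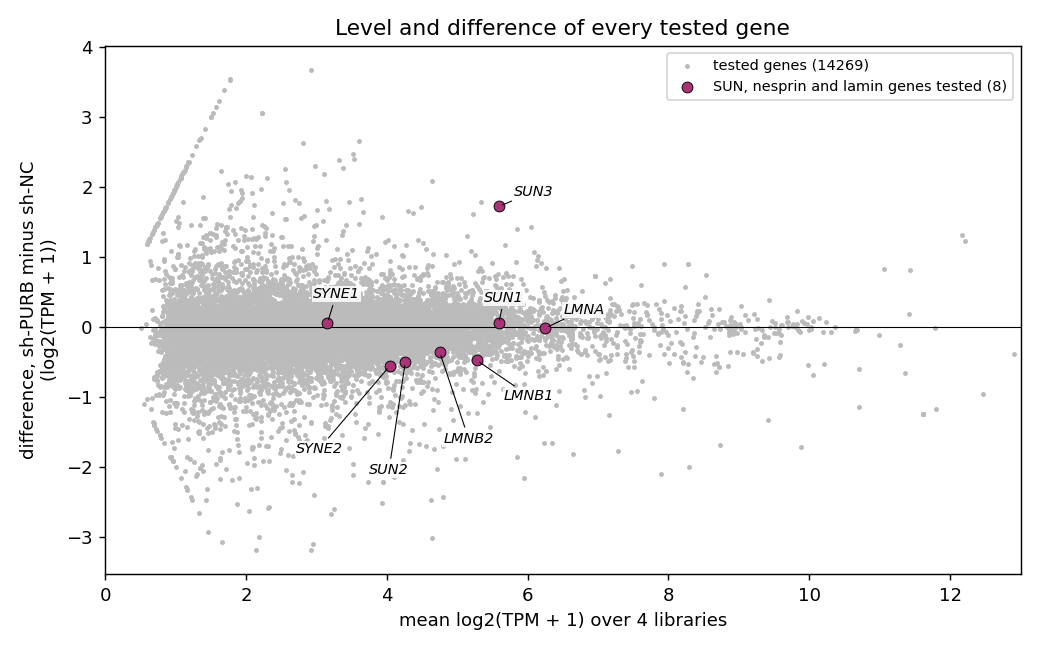
Difference between sh-PURB and sh-NC on the log2(TPM + 1) scale (vertical axis) against the mean level over 4 libraries (horizontal axis) for 14269 tested genes in grey and the 8 tested SUN, nesprin and lamin genes in purple. SUN3 lies at 1.73 at a level where few genes differ as much, and the other 7 lie between -0.56 and 0.06, inside the grey cloud.

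The rest of the nuclear envelope was read from 6 gene lists of 80 genes, 76 of them tested. limma called 0 of the 76 over all genes, against the 0.287% called among all tested genes. At an unadjusted p under 0.05 there were 2 higher and 7 lower, or 11.8% of the 76 against 15.3% of all tested genes. Of the 76, 28 lay above 0 and 48 below (63.2%, against 58.4% of all tested genes), with a median difference of -0.06, the same to 2 decimals as over all tested genes. When protein-coding genes alone were fitted, 1 of 78 was called, NDE1, which was lower.

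Of the remaining SUN and KASH genes only SPAG4 reached the filter. SPAG4, another testis SUN protein, was at 4.22 and 4.15 TPM in the controls, against 1.51 and 2.36 TPM after knockdown (difference -0.84 ± 0.211, limma adjusted p = 0.177). It thus lay on the other side of 0 from SUN3, with groups that did not overlap. KASH5, the meiotic nesprin that recruits dynein, was at 0.540 and 0.610 TPM in the controls, against 0.10002 and 0.222 TPM after knockdown, below 1 TPM throughout. IRAG2 (0.0448 to 0.210 TPM) and the epithelial nesprin SYNE4 (0.0568 to 0.256 TPM) were also below 1 TPM in every library. Of 20 testis and germ cell genes 7 were at 0 in every library, among them the protamines PRM1 and PRM2, and the sum of the list was 22.4 to 25.1 TPM in the controls, against 15.95 to 20.4 TPM after knockdown. The 5 with a mean of at least 1 TPM in a group were SYCP1, SYCP2, SPATA6, CATSPER1 and LDHC.

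Among 13 tested genes of the inner nuclear membrane none passed the test. Of the 13, 10 lay below 0 (76.9%, against 58.4% of all tested genes), with a median of -0.15. For 8 of the 13 both knockdown libraries were lower than both controls, as for 29.3% of all tested genes, and the list as such was not tested. TMPO, which encodes the LAP2 proteins that bind lamins and chromatin, was at 47.9 and 50.9 TPM in the controls, against 35.2 and 40.0 TPM after knockdown (limma adjusted p = 0.227). LBR, the receptor of B-type lamins, was at 27.7 and 25.7 TPM in the controls, against 19.9 and 22.5 TPM after knockdown (limma adjusted p = 0.318). LEMD1, a LEM-domain gene, stood at 44.5% of control (limma adjusted p = 0.267) and NRM, nurim, at 79.4% (limma adjusted p = 0.476).

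The torsins, ATPases of the lumen of the nuclear envelope, and their cofactors had a median difference of -0.06 over 7 genes, from -0.17 for TOR1A to 0.33 for TOR3A, with a smallest limma adjusted p of 0.499. TOR1AIP2 was at 110% of control and TOR2A at 86.0%. The 6 genes of lamin tail processing had a median of -0.02 and a smallest limma adjusted p of 0.464. ZMPSTE24, the protease that finishes lamin A, was at 12.5 and 10.4 TPM in the controls, against 14.7 and 11.03 TPM after knockdown, with groups that overlapped. FNTA, a subunit of farnesyltransferase, was at 111% of control, the methyltransferase ICMT at 95.2% and NARF, which binds prelamin A, at 79.9%.

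Nuclear pore genes went both ways, 16 above 0 and 15 below of 31, with a median of 0.05. Those with the smallest p were NUP88 (138% of control), NUP58 (79.7%), NUP50 (78.2%) and NUP37 (129%), at limma adjusted p-values between 0.321 and 0.362. Among 18 cytoplasmic partners of nesprins 14 lay below 0 (77.8%, against 58.4% of all tested genes, median -0.12), also not tested as a list. NDE1, a dynein regulator, was at 13.1 and 19.2 TPM in the controls, against 7.34 and 8.17 TPM after knockdown (difference -0.95 ± 0.210, limma adjusted p = 0.146). The kinesin heavy chain KIF5C was at 52.7% of control (limma adjusted p = 0.213), while the dynein heavy chain DYNC1H1 was at 125% (limma adjusted p = 0.256). The intermediate filament VIM was at 90.6% of control.

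**Figure D4:**
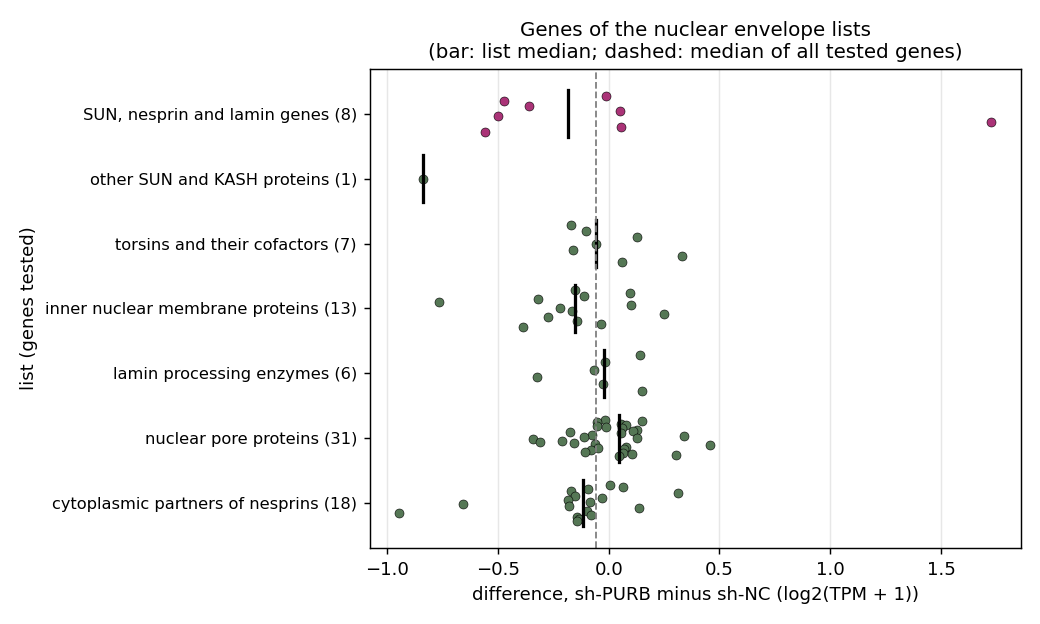
Difference between sh-PURB and sh-NC on the log2(TPM + 1) scale (horizontal axis) for each tested gene of the SUN, nesprin and lamin set (purple) and of 6 nuclear envelope lists (green), with a bar for the list median and a dashed line for the median of all tested genes. SUN3 at 1.73 stands alone on the right. No gene of the 6 lists lies above 0.46.

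By the GENCODE annotation of GRCh38, SUN3 occupies bases 47987148 to 48029119 of chromosome 7 on the minus strand, with 10 transcripts of up to 1456 bases, and no annotated gene overlaps it. PURB lies 3.14 megabases away on the same chromosome. The nearest start of a protein-coding gene is that of C7orf57, 6.39 kb from the SUN3 start on the opposite strand. C7orf57 was at 0.262 and 0.158 TPM in the controls, against 0.0692 and 0.104 TPM after knockdown, so it stayed near 0 beside SUN3. HUS1, of the DNA damage clamp, was at 11.5 and 13.1 TPM in the controls, against 15.3 and 15.1 TPM after knockdown (limma adjusted p = 0.378). UPP1, uridine phosphorylase, was at 21.7 and 21.5 TPM in the controls, against 26.7 and 23.4 TPM after knockdown (limma adjusted p = 0.495). Both lay higher without overlap, by far less than SUN3. ABCA13, a large ABC transporter whose start is 142 kb away, was at 0.923 and 1.09 TPM in the controls, against 2.48 and 4.19 TPM after knockdown (difference 1.08 ± 0.260, limma adjusted p = 0.162). Its mean was at 331% of control, against 337% for SUN3. At so low a level the log2(TPM + 1) difference understates the fold. TNS3, a tensin of focal adhesions, was on the lower side at 64.4% of control (limma adjusted p = 0.364). PKD1L1, IGFBP1, IGFBP3 and VWC2 were below 1 TPM in every library, and CDC14C was not analysed here.

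**Figure D5:**
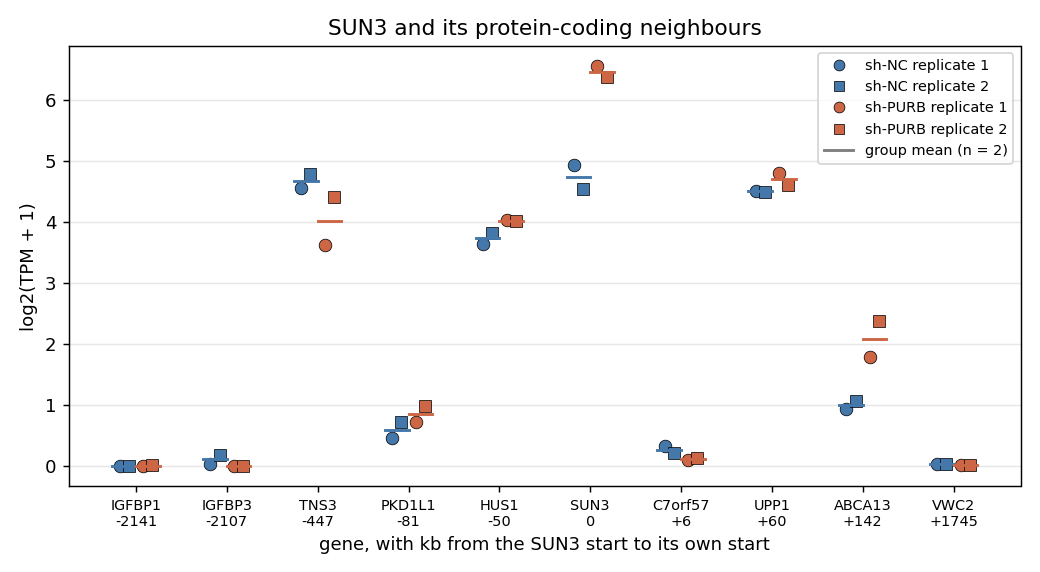
Level as log2(TPM + 1) (vertical axis) of SUN3 and 9 protein-coding genes beside it in their order on the chromosome, each with the distance in kb from the SUN3 start to its own, in the 2 sh-NC (blue) and 2 sh-PURB (orange) libraries with group means as bars. SUN3 and ABCA13 show the widest gaps upward, C7orf57 stays near 0, and TNS3 lies lower in sh-PURB.

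Other members share their locus with other genes. Overlap was taken from whole gene spans and exons were not compared, so it is not known whether any transcript sequence is shared. The strand setting used in quantification is also not known from the sources at hand. SUN2 (chromosome 22, 38734725 to 38794143) is overlapped by 8 annotated genes, 6 of them on the opposite strand. Of its protein-coding neighbours, GTPBP1 on the opposite strand was at 90.0% of control and DNAL4 on the same strand at 73.1%, both with overlapping groups. SUN1 (chromosome 7, 816615 to 896435) overlaps GET4, which was at 112% of control. LMNB2 (chromosome 19, 2427638 to 2456996) overlaps TIMM13, at 123% of control. SYNE1 (chromosome 6, 152121684 to 152637801) and SYNE2 (chromosome 14, 63852983 to 64226433) overlap ESR1 and ESR2, which stayed below 0.31 TPM in every library. The antisense gene SYNE1-AS1 was listed at 0 in both controls and at 0.0771 and 0.154 TPM after knockdown. LMNA (chromosome 1, 156082573 to 156140089), LMNB1 (chromosome 5, 126776623 to 126837020), SYNE3 (chromosome 14, 95407266 to 95475836) and SUN5 (chromosome 20, 32983773 to 33004433) are overlapped by no annotated gene.

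The genes whose pattern was nearest to that of SUN3 were found by the Euclidean distance between values of log2(TPM + 1), centred on each gene's mean over the 4 libraries, among 11926 other tested protein-coding genes. SPX, which encodes the peptide spexin, was nearest at a distance of 0.0911, with 5.74 and 4.18 TPM in the controls, against 20.3 and 18.8 TPM after knockdown. SCEL, the cornified envelope protein sciellin, followed at 0.303, the collagen COL12A1 at 0.304, the annexin ANXA3 at 0.353 and FDFT1, squalene synthase, at 0.367. Of these 5, limma called ANXA3 over all genes (adjusted p = 0.0464). The 5 were picked for a difference like that of SUN3 in these libraries, so nothing is read from this call. All 5 share with SUN3 only 4 libraries in 2 groups, so the distance describes these libraries.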

How the data were processed

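The authors deposited TPM per gene symbol, in 1 table of all libraries and 1 table for each, with identical values. Per the submitters' processing notes the tools were bcl2fastq 2.19, kallisto 0.44.0, sleuth and DESeq2 with the builds GRCh38 and GRCm38, and their roles are not given in the sources used here. The columns sum to 977570 to 981061, and a row without a name (0.921% to 1.66%) was left out. TPM keeps no depth, so no counting interval is given. Values were fitted as log2(TPM + 1) in limma 3.58.1 (R 4.3.3) with an intensity trend, over genes with at least 1 TPM in at least 2 libraries, and p-values were adjusted over every tested gene by Benjamini-Hochberg (threshold 0.05). Standard errors come from this fit (2 residual degrees of freedom), which was checked on simulated data. Differences on this scale understate those of low genes.

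The members and lists were chosen with earlier results of these data known. Named were all members, PURB, the 4 genes of smallest p in each nuclear envelope list (all tested genes where a list had fewer), the other SUN and KASH genes, 5 protein-coding genes on each side of SUN3, the 5 nearest patterns, and markers with a mean of at least 1 TPM in a group. A few further markers and overlapping genes were named after their values were seen. Places come from GENCODE release 29 on GRCh38, with 39140 symbols matched by current identifiers, 302 by name and 77 by neither. As alternatives the pseudocount was 0.1 or 0.5, the filter was dropped or set at TPM 5, and the others were 3 rescalings, protein-coding genes only, the replicate number as a block, 2 other moderations and leaving out each library. Plots used matplotlib 3.10.9 in Python 3.11.15.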

Additional observations from a re-analysis of the deposited data

How the results depend on the processing

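Each of SUN2, SUN3, SYNE2, LMNB1 and LMNB2 kept the sign of its difference in the 10 of 13 alternatives that gave it another value (another filter or the replicate block leaves it as it is), while SUN1, SYNE1 and LMNA, which lie near 0, did not. The median difference of the 8 tested members, -0.19, went to -0.039 with recomputed TPM, and ran from -0.249 to -0.021 when 1 library was left out, the latter without sh-PURB replicate 1. The count of genes called by limma, 41, was 0 with a pseudocount of 0.1, without a filter and without the trend, 121 with the filter at TPM 5, 84 after median-ratio rescaling, 118 after quantile normalization, 407 for protein-coding genes only and 125 with robust moderation. It was 0 to 0 without any 1 library, a fit with 1 residual degree of freedom. Of the nuclear envelope lists 1 gene was called for protein-coding genes only and 0 in the other fits. Of the members other than SUN3, which chose the set, none was called in any of these fits. Whether SUN3 was called changed with the fit, and no call is read for it either way, since the set was chosen on it. The causes were not tested. The replicate block gave 118 calls in all. With 2 pairs the numbers cannot be shown to pair the libraries (correlation of same-numbered deviations 0.193), so they are taken as names only. TPM gives no depth, so nothing can be said of the reads behind SUN5, SYNE3 and other low genes.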

Other observations

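Genes that share the motif before the RefSeq start of SUN3 were described together, a set made after the values were seen. Of 10258 tested genes with a promoter in the RefSeq table, 292 held TGATGNAAN on either strand in at least 1 promoter. Their median difference was 0.00, against -0.06 for all 10258, and both sh-PURB libraries lay above both controls for 26.4% of them, against 18.6%. Both lay below for 23.6%, against 30.4%. limma called 1 of the 292 over all genes (0.342%), ASNS, asparagine synthetase, which was higher, and 18 of the 10258 (0.175%). No test of the set was made, and SYNE1, which also holds the letters, had overlapping groups. The 4478 tested genes with CCAAT had a median of -0.07 and the 1425 with TTTGAA a median of -0.10. GGNGGNGGN was in at least 1 promoter of 7837 of the 10258 genes. These had a median of -0.07, with both sh-PURB libraries above both controls for 17.9% and below for 31.6%. They held 16 of the 18 called genes (0.204% of the 7837, against 0.175% of the 10258). Most of the 10258 genes held these letters, so nothing is read from the 16.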
